A study of Mus musculus with 6 samples.

Results

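The genes described here encode the CARMIL proteins, the subunits of actin capping protein, and proteins that bind capping protein, in 4T1 cells with and without a knockout of Carmil3. The 10 genes Carmil1, Carmil2, Carmil3, Capza1, Capza2, Capzb, Twf1, Twf2, Mtpn and Cd2ap were taken by name, and all 10 were found among the 23644 genes of the deposited table. 4T1 is a mouse mammary tumour cell line. RNA sequencing was done on 3 libraries labelled Carmil3 knockout and 3 libraries labelled wild type (WT), and the labels describe the knockout cells as clones grown from single cells, kept in the same medium with serum as the control cells. The sources used here give neither the way the gene was disrupted, nor the number of clones, nor whether replicates were cultured separately. All p-values thus refer to the spread between these 6 libraries, which may be technical, and a difference between a clone and the control cells cannot be told apart from an effect of the knockout. The question addressed was how transcript levels differ between Carmil3 knockout and control cells.

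Capping protein is a heterodimer of an alpha and a beta subunit that binds the fast-growing, barbed end of an actin filament and stops the addition of further actin. CARMIL proteins hold a capping protein interaction motif, recruit capping protein to the plasma membrane and weaken its grip on the filament end, and they are known for roles in lamellipodia, cell migration and, for CARMIL2, co-stimulation of T cells. Myotrophin, the product of Mtpn and also called V-1, sequesters capping protein away from filament ends, twinfilins bind both actin monomers and capping protein, and CD2AP carries the same kind of interaction motif as the CARMIL proteins and links capping protein to membrane adhesion sites.

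The start regions of 4 members are shown, the targeted gene and the 3 members that passed the test of change below, with every CG dinucleotide in capitals. The stretches shown hold 17 CG dinucleotides for Carmil3, 22 for Capza2, 10 for Mtpn and 9 for Twf1. The counts below are over the whole 250 bases and include bases not shown. The sequences are from RefSeq on GRCm38.p6, lie within the 250 bases before the RefSeq start, leave out bases that GENCODE M21 places in an exon of the gene, and run 5′ to 3′ on the gene's strand. Their positions are chr14:55490942-55491068 (plus strand) for Carmil3, chr6:17636760-17636982 (plus strand) for Capza2, chr6:35539889-35540138 (minus strand) for Mtpn and chr15:94589890-94590074 (minus strand) for Twf1.
Carmil3: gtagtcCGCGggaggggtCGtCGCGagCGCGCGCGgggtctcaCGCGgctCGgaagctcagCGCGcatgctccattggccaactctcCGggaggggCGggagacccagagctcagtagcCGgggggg
Capza2: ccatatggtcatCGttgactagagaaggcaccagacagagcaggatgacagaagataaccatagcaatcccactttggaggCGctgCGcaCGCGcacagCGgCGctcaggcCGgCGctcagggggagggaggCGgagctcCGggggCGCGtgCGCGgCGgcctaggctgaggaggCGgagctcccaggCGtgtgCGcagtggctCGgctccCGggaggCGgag
Mtpn: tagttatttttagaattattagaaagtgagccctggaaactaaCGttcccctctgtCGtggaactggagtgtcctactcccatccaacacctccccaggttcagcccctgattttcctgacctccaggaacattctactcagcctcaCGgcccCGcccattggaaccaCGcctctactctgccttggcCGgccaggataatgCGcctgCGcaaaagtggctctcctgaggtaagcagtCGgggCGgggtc
Twf1: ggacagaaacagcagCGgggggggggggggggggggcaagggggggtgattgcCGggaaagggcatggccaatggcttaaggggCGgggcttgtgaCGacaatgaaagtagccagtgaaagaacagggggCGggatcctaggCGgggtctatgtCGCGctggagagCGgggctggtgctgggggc
Over the whole 250 bases Carmil3 had 29 CG dinucleotides, Capza2 28, Twf1 19 and Mtpn 10, where the median of 27025 promoters of that length was 6. As many CG dinucleotides as in Carmil3 were found in 6.43% of those promoters, and as many as in Mtpn in 38.2%. The nearly silent Carmil3 and the abundant Capza2 thus had almost the same CG count. TATAAA, searched on both strands, was in none of the 7 members with an entry and in 12.97% of all promoters. GGGCGG, which overlaps CG, was also searched on both strands of the whole 250 bases, so copies may lie outside the stretch shown. Of the 4 genes it was found in Carmil3 (2 copies), Mtpn (2 copies) and Twf1 (3 copies) but not in Capza2, and in 32.9% of all promoters. CCAAT on either strand was found once each in Carmil3, Mtpn and Twf1, not in Capza2, and in 34.5% of all promoters. These matches describe the letters of the windows and are not binding sites. Carmil1, Carmil2 and Twf2 had no entry.

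The spacing of the deposited values gave read totals between 18139163 and 19046797 in the knockout libraries and between 17779110 and 18719065 in the WT libraries. Values are given as FPKM, which scales reads to exon length and library size, so levels of different genes can be compared. Of the mammary epithelial markers, 7 of the 8 listed were measured and all 7 were lower in knockout cells, with sums of 428 to 473 FPKM in the knockout libraries and 1013 to 1107 FPKM in the WT libraries. Krt8 and Krt18 made up most of both sums, and Epcam was near 0 in knockout cells, at 0.0875 ± 0.0544 FPKM against 19.7 ± 0.0502 FPKM in WT cells (SD, n = 3 each). Means in knockout against WT cells were 0.149 against 27.9 FPKM for Krt7, 0.773 against 12.4 FPKM for Cdh1 and 0.0105 against 2.81 FPKM for Krt14. The sums thus understate the fall of the less abundant markers. Of 5 fibroblast markers 2 passed the filter, Pdgfra higher and Col1a1 lower in knockout cells, and the summed level was 17.8 to 18.3 FPKM in the knockout libraries and 11.4 to 12.01 FPKM in the WT libraries. The 3 measured of 5 leukocyte markers summed to at most 0.0589 FPKM in a knockout library and at most 0.0235 FPKM in a WT library, and the 3 measured of 4 endothelial markers to at most 0.0682 FPKM in knockout and 0.0572 FPKM in WT. In bulk RNA, fewer cells of a kind and less RNA per cell cannot be told apart. The part of the epithelial difference in the results below was not tested. Knockout replicate 3 stood apart from the other knockout libraries on the component with 11.8% of the variance (-15.5, against 6.73 and 9.56) and had the highest FPKM sum, 304881 against 286774 to 291612 in the other 5 libraries. Results that lean on it are also given without it.

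The 10 genes covered a wide range of levels, and their order was nearly the same in both groups. Mtpn was the most abundant in knockout cells at 142 ± 3.13 FPKM and in WT cells at 118 ± 7.94 FPKM (SD, n = 3 each), and it lay above 97.1% of the 11171 tested genes in WT cells. Capza1 followed, with no overlap with Mtpn in either group. Below it came Capzb, Cd2ap and Capza2, then Twf1 and Twf2, then Carmil1, and far below these Carmil2 and Carmil3. The neighbours in that order whose library values overlapped were Cd2ap and Capza2 in knockout cells and Cd2ap and Capzb in WT cells, and these pairs cannot be ranked. Carmil1 was 48.6 times Carmil2 in knockout cells and 42.9 times Carmil2 in WT cells, so almost all CARMIL mRNA measured was Carmil1. Carmil1 itself lay above 26.1% of the tested genes in WT cells, against 91.8% for Capzb and 94.7% for Capza1.

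**Figure D1:**
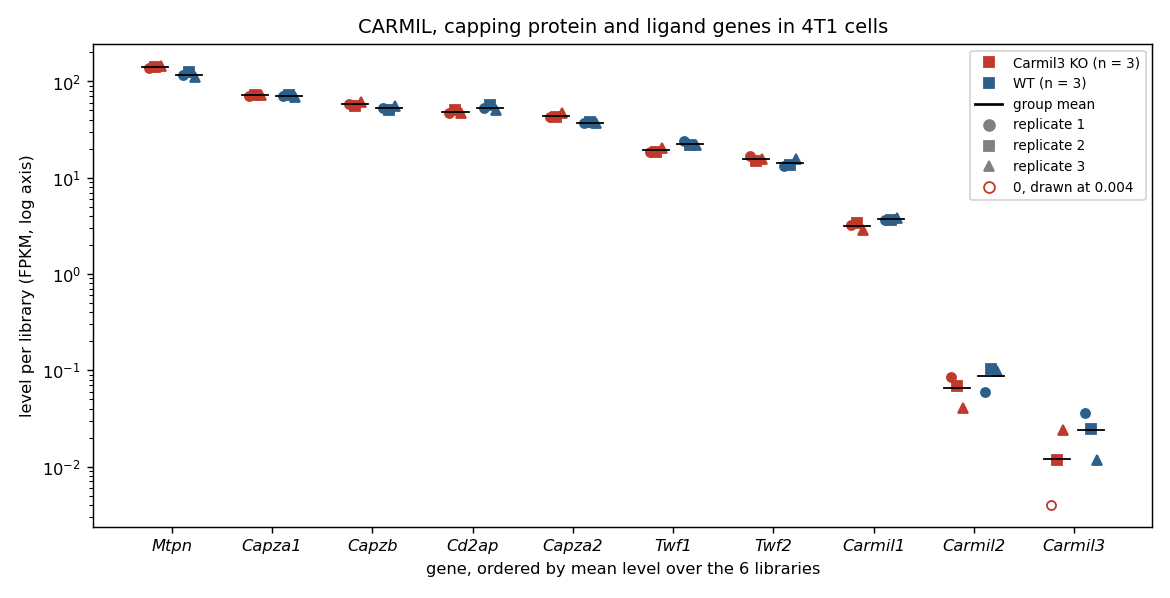
Level of each of the 10 genes (FPKM, log axis) in the 3 Carmil3 knockout libraries (red) and the 3 WT libraries (blue); shapes mark replicates, black bars the group means, and the open circle a listed 0. Mtpn stands highest in every library and Carmil2 and Carmil3 lie below 0.11 FPKM throughout. The groups of each of the 8 higher genes lie close together, and those of Carmil2 and Carmil3 overlap with a wide spread.

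Carmil3 (ENSMUSG00000022211, chromosome 14, 55490651 to 55508272, plus strand, GRCm38), the gene named in the knockout label, was close to absent in all 6 libraries. Its values in the knockout libraries were 0, 0.0118 and 0.0241 FPKM, and in the WT libraries 0.0360, 0.0246 and 0.0117 FPKM. The groups overlapped, and the knockout library with the highest value was level with the middle WT library. All values are whole multiples of 1 read at an exon length of 4580 bases, which gives 0, 1 and 2 reads in the knockout libraries and 3, 2 and 1 reads in the WT libraries; the GENCODE M21 exon union is longer, 6457 bases, and does not give whole reads. The summed 3 reads in knockout and 6 reads in WT libraries give a ratio of 0.491 with an exact 95% interval of 0.0794 to 2.30, which covers counting error only. A two-sided exact permutation test on the levels gave p = 0.3, where 3 against 3 libraries cannot go below 0.1. A level of 1 FPKM would have given 81.4 to 87.2 reads in a library. A loss of Carmil3 mRNA was therefore not detectable at this depth, and the level of the gene does not check the labels.

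Carmil2 (ENSMUSG00000050357, chromosome 8, 105686274 to 105698187, plus strand), the paralog known from T cells, was also below the filter of 1 FPKM in 3 libraries. Its values in the knockout libraries were 0.0861, 0.0689 and 0.0402 FPKM, and in the WT libraries 0.0601, 0.103 and 0.0974 FPKM. That is 9, 7 and 4 reads in knockout and 6, 10 and 10 reads in WT libraries, with overlapping groups (two-sided exact permutation p = 0.3). Its exons share 1208 bases with Acd, a telomere protein gene on the opposite strand that reached 7.66 FPKM, and without a known strand setting these reads cannot be told apart. Carmil1 (ENSMUSG00000021338, chromosome 13, 24012344 to 24280795, minus strand) was the expressed paralog. It measured 3.21, 3.41 and 2.88 FPKM in the knockout libraries and 3.68, 3.62 and 3.85 FPKM in the WT libraries, from 469 to 647 reads each. Every knockout library was below every WT library. The log2 change of (FPKM + 1) was -0.18 (SE 0.0704, 95% interval -0.34 to -0.02), which did not pass limma's test after Benjamini-Hochberg adjustment (adjusted p = 0.0756). Without knockout replicate 3, the lowest library, the log2 change was -0.13 (adjusted p = 0.131). The difference passed in only 2 of the 15 alternatives other than the 1.5-fold test. These were limma-voom on the recovered reads (log2 change -0.24, adjusted p = 0.0341) and the centring on neighbouring genes given below. With 0.1 in place of 1 FPKM added before the log2, the change was -0.23 (adjusted p = 0.0777, limma). No rise of a CARMIL paralog in the knockout cells was detected.

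Among the capping protein subunits, the alpha subunit gene Capza2 rose in knockout cells and the other alpha subunit gene, Capza1, did not pass the test. Capza2 (ENSMUSG00000015733, chromosome 6, 17636234 to 17666972, plus strand) measured 42.5, 42.9 and 47.4 FPKM in the knockout libraries and 37.2, 37.8 and 36.7 FPKM in the WT libraries. The groups did not overlap, and knockout replicate 3 was the highest library. The log2 change was 0.24 (SE 0.0569, 95% interval 0.11 to 0.37, adjusted p = 0.0116, limma), and 0.19 without knockout replicate 3 (adjusted p = 0.0102). The call was lost without WT replicate 1 (adjusted p = 0.0528). Capza1 (ENSMUSG00000070372, chromosome 3, 104822779 to 104864505, minus strand) measured 71.0, 72.5 and 72.5 FPKM in the knockout libraries and 70.3, 72.6 and 69.0 FPKM in the WT libraries. These values overlapped almost fully, and the log2 change was 0.03 with a 95% interval of -0.08 to 0.14 (adjusted p = 0.695, limma). Capza1 shares 99.55% identity over 2859 bases with the pseudogene Gm3608, which reached 0.789 FPKM. It also shares 96.27% over 857 bases with Gm5920, which is absent from the deposited values. How reads that match several genes were handled is not given. The error this leaves in the Capza1 level, and in ratios that use it, is thus not known. Capzb (ENSMUSG00000028745, chromosome 4, 139192899 to 139291818, plus strand) encodes the beta subunit, and the table does not separate its isoforms. It measured 58.3, 55.9 and 61.9 FPKM in the knockout libraries and 52.5, 50.9 and 55.0 FPKM in the WT libraries. All knockout libraries were above all WT libraries, by 0.882 FPKM at the nearest pair. The log2 change of 0.15 (SE 0.0580, 95% interval 0.02 to 0.28) did not pass the test (adjusted p = 0.0756, limma). It passed in only 2 of the 16 alternatives other than the 1.5-fold test. These were quantile normalization (adjusted p = 0.0437) and the replicate number as a block (adjusted p = 0.0455). Without knockout replicate 3, the highest library, the log2 change of Capzb was 0.11 (adjusted p = 0.115, limma).

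Of the genes whose products bind capping protein, Mtpn rose and Twf1 fell in knockout cells. Mtpn (ENSMUSG00000029840, chromosome 6, 35508906 to 35539888, minus strand) measured 139, 141 and 145 FPKM in the knockout libraries and 116, 127 and 112 FPKM in the WT libraries, each from 8271 reads or more. The lowest knockout library was 11.9 FPKM above the highest WT library. The log2 change was 0.26 (SE 0.0625, 95% interval 0.12 to 0.41, adjusted p = 0.0120, limma), a ratio of means of 1.20, and the call was lost without WT replicate 1 (adjusted p = 0.0635). Twf1 (ENSMUSG00000022451, chromosome 15, 94577951 to 94589889, minus strand), the gene of twinfilin-1, measured 18.6, 18.5 and 20.5 FPKM in the knockout libraries and 24.0, 21.7 and 22.0 FPKM in the WT libraries. The groups did not overlap, and WT replicate 1 was the highest library. The log2 change was -0.22 (SE 0.0638, 95% interval -0.37 to -0.08, adjusted p = 0.0264, limma). This call was lost without WT replicate 1 (adjusted p = 0.121), without knockout replicate 1 (0.0836) or without knockout replicate 2 (0.0870). Exons of Twf1 and of the kinase gene Irak4 on the opposite strand share 395 bases, and Irak4 reached 4.55 FPKM. Twf1 also shares 97.43% identity over 1052 bases with Gm4887, which is absent from the deposited values.

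Twf2 and Cd2ap did not pass the test. Twf2 (ENSMUSG00000023277, chromosome 9, 106203108 to 106215389, plus strand), the gene of twinfilin-2, measured 16.8, 14.8 and 15.8 FPKM in the knockout libraries and 13.4, 13.6 and 15.5 FPKM in the WT libraries. WT replicate 3 lay among the knockout libraries, and the log2 change of 0.15 had a 95% interval of -0.02 to 0.32 (adjusted p = 0.151, limma). Cd2ap (ENSMUSG00000061665, chromosome 17, 42792951 to 42876665, minus strand) measured 47.1, 50.4 and 47.1 FPKM in the knockout libraries and 53.1, 57.0 and 50.7 FPKM in the WT libraries. The groups were separated by only 0.364 FPKM. Its log2 change was -0.15 (SE 0.0600, 95% interval -0.29 to -0.01, adjusted p = 0.0823, limma). It passed in only 2 of the 16 alternatives other than the 1.5-fold test. These were the replicate number as a block (adjusted p = 0.0487) and the centring on neighbouring genes given below. The deposited values of Cd2ap are whole multiples of 1 read at an exon length of 5399 bases, against 15864 bases for the M21 exon union, so its place in the order of levels depends on the shorter length. Cd2ap shares 96.58% identity over 2018 bases with Gm49797 and 96.12% over 1830 bases with Gm6475. Both are absent from the deposited values.

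In all, 8 of the 10 members passed the filter on low values, and of these 2 were higher and 1 was lower in knockout cells. The 3 calls are 37.5% of the tested members, where 35.6% of all 11171 tested genes were called (16.9% higher and 18.7% lower), so the members were called about as often as any gene. Without WT replicate 1, the genes called higher numbered 1182 in place of 1886 and those called lower 1358 in place of 2087, and no member was called. Knockout and WT values were fully apart for 6 of the 8 members, 3 higher and 3 lower, and this held for 50.5% of all tested genes (24.2% higher and 26.4% lower). The median absolute log2 change was 0.17 for the members and 0.16 for all tested genes. The largest among the members, that of Mtpn, was exceeded by 71.8% of the 3973 called genes. Against a 1.5-fold change no member passed limma's test.

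**Figure D2:**
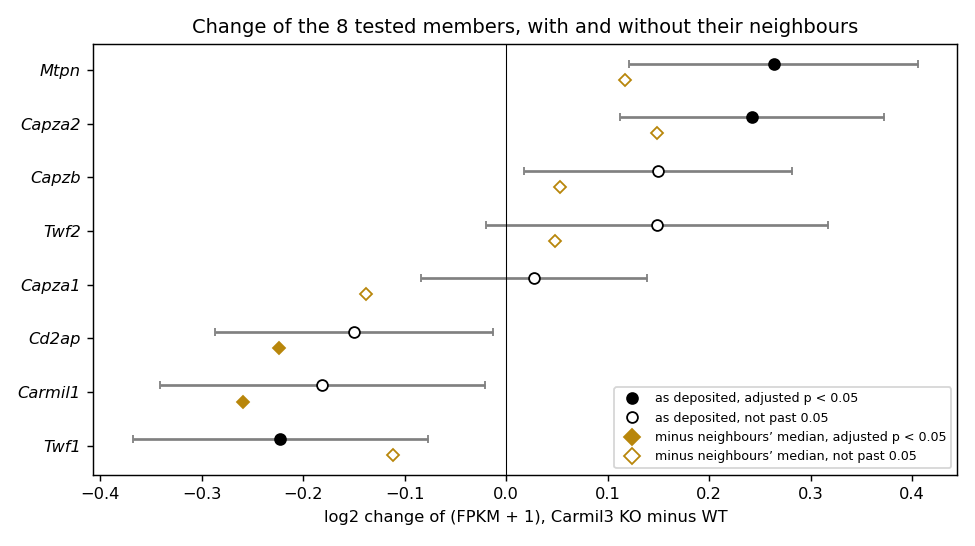
Log2 change of (FPKM + 1) of the 8 tested genes, knockout minus WT, with 95% intervals (circles), and the change after the median of the 40 nearest tested genes was subtracted (diamonds); filled symbols have an adjusted p under 0.05. Mtpn and Capza2 lie right of 0 and Twf1 left of it as deposited, and after the subtraction only Carmil1 and Cd2ap are filled.

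The 3 called members changed in the direction of the median of their 40 nearest tested genes, 20 on each side. These 40 genes spanned 9237 kb around Mtpn, 22910 kb around Capza2 and 9344 kb around Twf1, so they cover wide regions. Around Mtpn, 30 of the 40 nearest tested genes were higher in knockout cells, 17 of them and 2 of the lower ones past the threshold, and their median log2 change was 0.15. Around Capza2, on the same chromosome, 27 of 40 were higher, 9 of them and 4 of the lower ones past the threshold, with a median of 0.09. Of all tested genes 16.9% were called higher and 18.7% lower, so the 9 of 40 around Capza2 are near the share of all genes. The median of all 523 tested genes of chromosome 6 was 0.16. Twf1 had the opposite surroundings, with 30 of 40 neighbours lower and a median of -0.11. Of the lower ones 7, and of the higher ones 2, were past the threshold, and the 7 are near the share of all genes called lower. The median of all 455 tested genes of chromosome 15 was -0.12, so the neighbours of Twf1 did not differ from their chromosome. After the neighbours' median was subtracted, the log2 changes were 0.12 for Mtpn (adjusted p = 0.202), 0.15 for Capza2 (adjusted p = 0.0899) and -0.11 for Twf1 (adjusted p = 0.235), and none of the 3 calls was kept (limma). The part of chromosome position in these changes was not tested.

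Carmil1 and Cd2ap changed in the direction opposite to the median of their neighbours, and these medians were small. The 40 neighbours of Carmil1 had a median log2 change of 0.08, with 26 of them higher and 14 lower. Those of Cd2ap had a median of 0.07, with 22 of them higher and 18 lower. Past the threshold were 8 higher and 3 lower neighbours of Carmil1, and 7 higher and 3 lower neighbours of Cd2ap. The higher ones are near the 16.9% of all tested genes called higher, so neither region had a marked direction. After subtraction Carmil1 stood at -0.26 (adjusted p = 0.0270) and Cd2ap at -0.22 (adjusted p = 0.0248), and both then passed limma's test. The median was subtracted as a fixed number, so p-values after subtraction leave out its own error and may be too small. So 2 of the 8 members were called after subtraction, against 26.7% of 11141 genes (13.1% higher and 13.6% lower), and the 2 were other genes than the 3 called before. Capza1, with a log2 change of 0.03, lay in a region where 35 of 40 neighbours were higher (median 0.17), and it stood at -0.14 after subtraction (adjusted p = 0.0679). Capzb and Twf2 stood at 0.05 each.

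**Figure D3:**
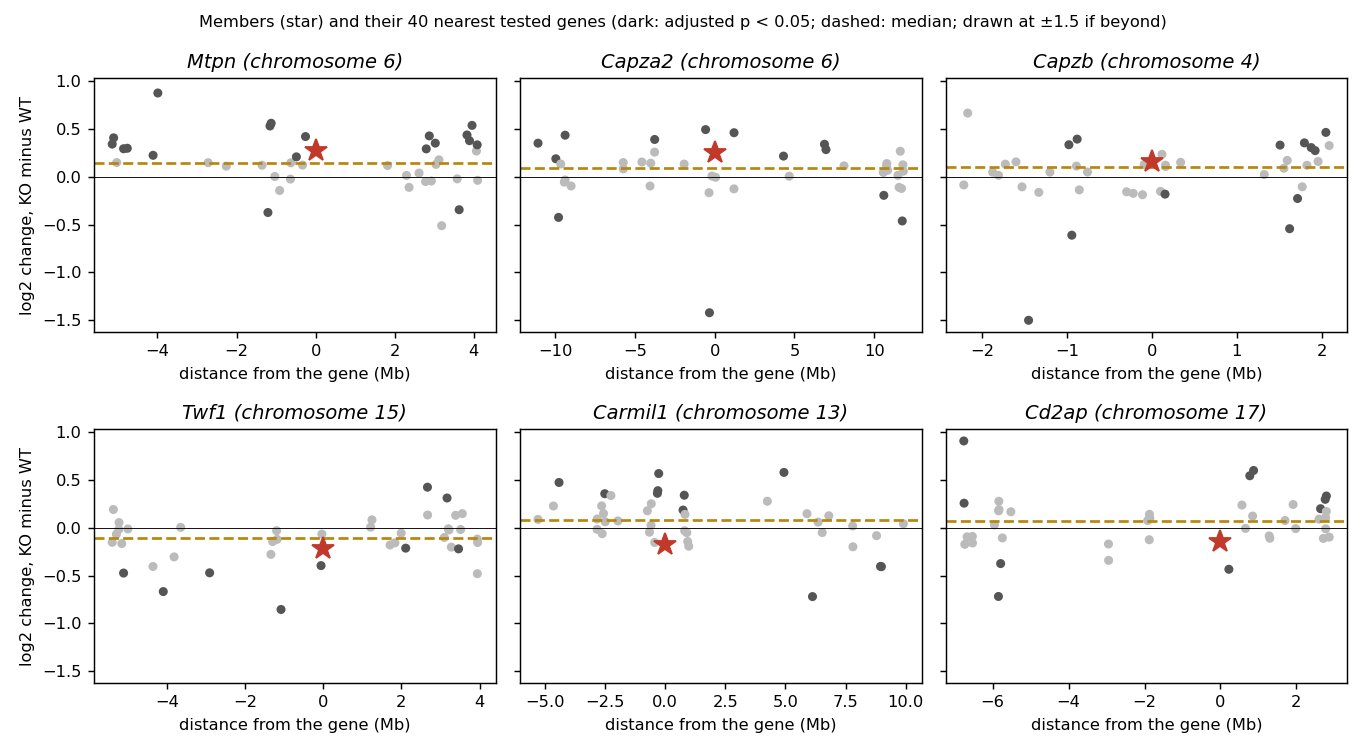
Log2 change (knockout minus WT) of 6 members (stars) and of their 40 nearest tested genes by distance from the member in megabases; dark points have an adjusted p under 0.05 and the dashed line is the median of the 40. Mtpn, Capza2 and Twf1 lie on the same side of 0 as the dashed line, and Carmil1 and Cd2ap on the other side.

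Ratios between members within a library do not depend on the scaling of that library, and 5 were computed. Capza1 made up 62.6%, 62.8% and 60.5% of the alpha subunit FPKM in the knockout libraries and 65.4%, 65.7% and 65.3% in the WT libraries. The groups did not overlap, and the mean was 62.0% ± 1.30 in knockout and 65.5% ± 0.223 in WT cells (SD, n = 3 each). The log2 ratio of Capza1 to Capza2 differed by -0.22 (exact two-sided permutation p = 0.1, the smallest that 3 against 3 libraries allow; 0.167 adjusted over the 5 ratios), and by -0.17 without knockout replicate 3. The summed alpha subunits were 1.98 ± 0.0701 times Capzb in knockout and 2.04 ± 0.123 times in WT cells (SD, n = 3 each), with overlapping groups (exact permutation p = 0.7). Mtpn was 2.42 ± 0.0980 times Capzb in knockout and 2.24 ± 0.234 times in WT cells, again with overlap (SD, n = 3 each; exact permutation p = 0.3).

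Capping protein mRNA exceeded CARMIL mRNA by more in every knockout library than in any WT library. Capzb over the sum of the 3 CARMIL genes was 17.7, 16.03 and 21.03 in the knockout libraries and 13.9, 13.6 and 13.9 in the WT libraries. Knockout replicate 3 was the highest. The log2 ratio differed by 0.39 (exact two-sided permutation p = 0.1; 0.167 adjusted over the 5 ratios), and by 0.29 without knockout replicate 3. The twinfilins differed in proportion between the groups. Twf1 made up 52.4%, 55.7% and 56.5% of twinfilin FPKM in the knockout libraries and 64.2%, 61.5% and 58.6% in the WT libraries, and the groups did not overlap (difference of the log2 ratio of Twf1 to Twf2 -0.39, exact permutation p = 0.1). The twinfilin sum was 34.98 ± 1.495 FPKM in knockout and 36.7 ± 1.30 FPKM in WT cells, with overlapping groups (SD, n = 3 each; exact permutation p = 0.3). All 3 of these ratios sit at the limit of the design and cannot pass 0.05.

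**Figure D4:**
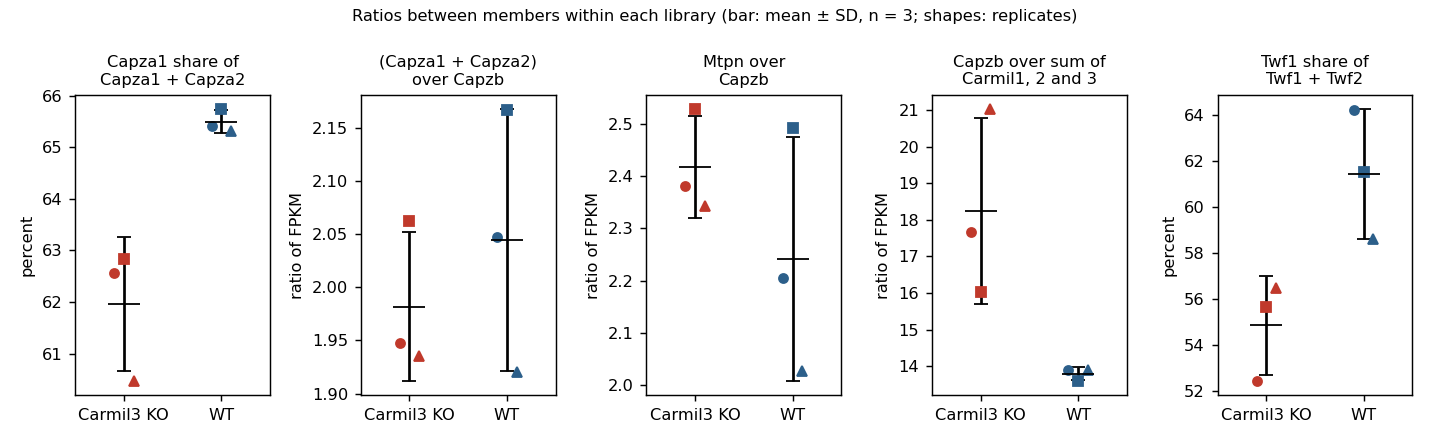
Ratios between member genes in each library, knockout (red) left of WT (blue), with the mean and SD of each group of 3 (bars); shapes mark replicates and the axes do not start at 0. The groups are apart for the Capza1 share, Capzb over the CARMIL sum and the Twf1 share, and overlap for the alpha sum over Capzb and Mtpn over Capzb.

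Genes linked to capping protein, CARMIL proteins or actin assembly were read from 6 chosen lists. Each list was set against the 35.6% of all tested genes called (16.9% higher and 18.7% lower). Of the other ligands and relatives of capping protein, 4 of 7 were tested and 1 of the 4 fell (25%, near the 18.7% of all genes called lower). This was Sh3kbp1, the paralog of Cd2ap also known as CIN85, at 8.10 ± 0.461 FPKM in knockout and 9.96 ± 0.153 FPKM in WT cells (SD, n = 3 each), a log2 change of -0.27 (adjusted p = 0.0081, limma). Capg, a gelsolin-like capping protein gene, measured 83.0 ± 4.70 FPKM in knockout and 86.0 ± 8.55 FPKM in WT cells, and Washc2, which carries the interaction motif within the endosomal WASH complex, 11.3 ± 0.749 FPKM in knockout and 10.2 ± 0.500 FPKM in WT cells (SD, n = 3 each); neither passed the test, and Washc2 passed without knockout replicate 3. In the WASH complex 1 of 5 members fell (20%, again near 18.7%). This was Washc5, the strumpellin gene, at 38.8 ± 2.55 FPKM in knockout and 50.4 ± 1.35 FPKM in WT cells (log2 change -0.37, adjusted p = 0.0019, limma). After subtraction of the neighbours' median neither Sh3kbp1 (adjusted p = 0.146) nor Washc5 (adjusted p = 0.148) passed. The list medians were -0.02 and -0.05, against -0.01 for all tested genes.

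Dynactin, the dynein partner whose short Arp1 filament is itself capped by capping protein, had 2 of 9 tested members higher and 2 lower in knockout cells, with a median log2 change of 0.07. These 4 are 44.4% of the list, near the 35.6% of all tested genes called. Dctn6 (log2 change 0.33) and Dctn1 (0.24) rose, Actr10 (-0.25) and Dctn4 (-0.15) fell, and the Arp1 genes Actr1a and Actr1b measured 50.3 ± 1.58 and 41.6 ± 1.02 FPKM in knockout cells against 50.7 ± 1.45 and 39.6 ± 1.58 FPKM in WT cells (SD, n = 3 each). Without knockout replicate 1 or 2 or without any 1 of the WT replicates, 1 member rose and none fell. Without the filter on low values all 4 calls were lost, and after subtraction of the neighbours' median Dctn6 rose alone.

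In the Arp2/3 complex, which starts the branched filaments that capping protein keeps short, 5 of 9 tested members fell and none rose, which is 55.6% called lower against 18.7% of all tested genes; the difference between these shares was not tested. Arpc5 fell to 63.7 ± 3.63 FPKM in knockout cells, against 91.7 ± 3.04 FPKM in WT cells (SD, n = 3 each; log2 change -0.52, adjusted p = 0.000278, limma). Actr3 (-0.32), Arpc3 (-0.28) and Arpc1b (-0.27) were among the others. The call of Arpc1b (adjusted p = 0.0433, limma) held in 8 of the 16 alternatives other than the 1.5-fold test, and was lost without the filter, without WT replicate 1 or 3 and without any 1 of the knockout replicates. Arpc2 at 212 ± 15.5 FPKM in knockout and 203 ± 0.789 FPKM in WT cells, and Arpc4 at 39.8 ± 0.832 FPKM in knockout and 35.6 ± 3.15 FPKM in WT cells, did not pass (SD, n = 3 each). The list median was -0.25. Without WT replicate 1 the count was 3, and after subtraction of the neighbours' median it was 2, Arpc5 and Arpc3, with a median of -0.06, where 13.6% of all genes were called lower. Ena/VASP proteins and formins lengthen barbed ends and compete with capping protein there. Of 11 tested members 2 rose and 6 fell, with a median log2 change of -0.29. These 8 are 72.7% of the list, against 35.6% of all tested genes, and the difference between these shares was not tested. Enah, the gene of Mena, rose to 15.2 ± 0.0395 FPKM in knockout cells, against 9.46 ± 0.236 FPKM in WT cells (SD, n = 3 each; log2 change 0.63). The formin genes Daam1 (-0.59), Fmnl1 (-0.55) and Fmnl3 (-0.38) fell, and the other 4 called genes had log2 changes between -0.32 and 0.27. Vasp at 70.5 ± 5.25 FPKM in knockout and 71.01 ± 5.54 FPKM in WT cells, and the formin gene Inf2 at 40.8 ± 4.78 FPKM in knockout and 42.5 ± 2.98 FPKM in WT cells, did not pass (SD, n = 3 each). After subtraction of the neighbours' median 2 rose and 4 fell, where 26.7% of all genes were called.

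The list of other CARMIL partners was chosen by name, and direct binding of each product, such as that of Rac1, was not checked. Of its 5 genes 4 were tested, 1 rose and 1 fell. With 2 of 4 genes called, the list is too short to set apart from the 35.6% of all tested genes called. Vim, the vimentin gene, whose product binds CARMIL2, measured 863 ± 37.5 FPKM in knockout and 721 ± 36.9 FPKM in WT cells (SD, n = 3 each; log2 change 0.26, adjusted p = 0.0174, limma). Trio, a guanine nucleotide exchange factor gene for Rac, measured 7.51 ± 1.36 FPKM in knockout and 9.83 ± 0.391 FPKM in WT cells (log2 change -0.36, adjusted p = 0.0353, limma), with knockout replicate 3 the lowest at 5.95 FPKM. Rac1 at 75.6 ± 4.45 FPKM in knockout and 80.1 ± 0.945 FPKM in WT cells, and the myosin gene Myo1e at 13.2 ± 1.04 FPKM in knockout and 12.2 ± 0.286 FPKM in WT cells, did not pass. Trio was not called after subtraction of the neighbours' median (log2 change -0.14, adjusted p = 0.402, limma) or without the filter on low values, and Vim was called in both. Without WT replicate 1 or 2 no gene of this list was called, without knockout replicate 1 only Trio was, without WT replicate 3 only Vim was, and without knockout replicate 3 all 4 were.

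**Figure D5:**
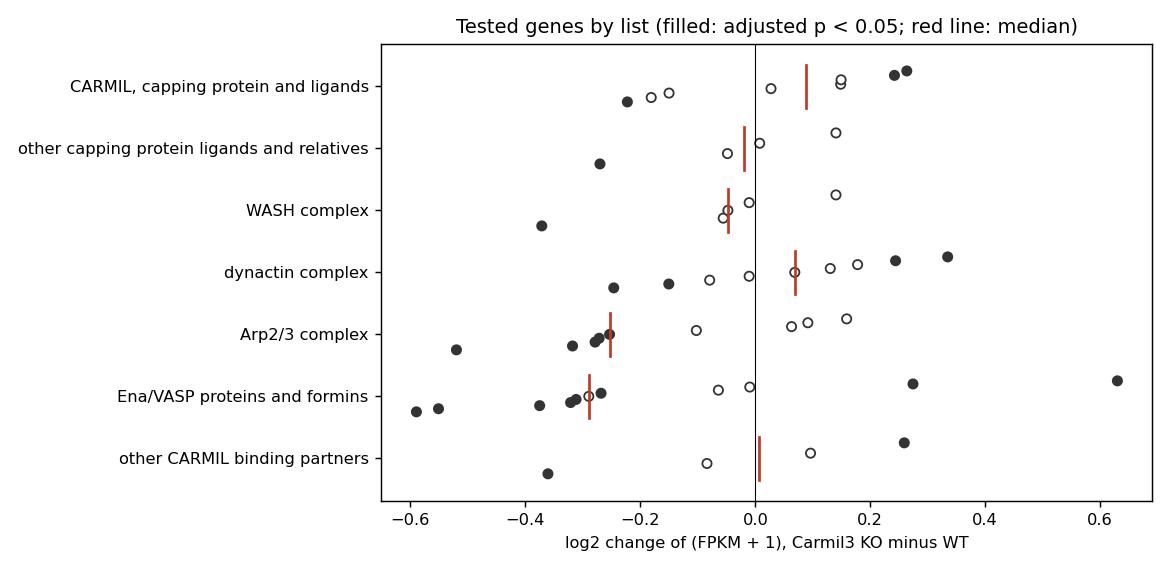
Log2 change of (FPKM + 1), knockout minus WT, of the tested genes of each list; filled points have an adjusted p under 0.05 and red lines are list medians. The 8 tested members of the top row lie between -0.22 and 0.26, and most filled points of the Arp2/3 and Ena/VASP and formin rows lie left of 0.

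Over the 6 libraries, the genes of at least 5 FPKM whose log2 values followed Carmil1 most closely were Mmp14 (Pearson r = 0.998), Samd10 (0.995), Plekhh2 (0.992), Clip1 (0.992) and Mast2 (0.990). For Capzb they were Srsf7 (0.998), Rps9 (0.997) and Polr1c (0.992). Over 0.95 lay 89 of 7323 genes for Carmil1 and 157 of 7322 for Capzb, so the leading genes are few of many alike, and the 6 values of each gene fall into the 2 groups.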

How the data were processed

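Per the labels, total RNA of 4T1 cells was extracted with Trizol and sequenced with standard Illumina libraries. The authors deposited 1 table of values in the form of FPKM for 23644 Ensembl genes; the values themselves show the unit, and it is not stated if single reads or pairs were counted. TopHat2 2.0.12, HTSeq 0.6.0, TopHat, Bowtie2, Bowtie and CASAVA with mm10 are named per the submitters' processing notes. What each tool did, which annotation was used and the strand setting are not given here.

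Symbols, positions and exon lengths came from GENCODE M21 (GRCm38, the assembly of mm10), with a symbol for 23577 rows. FPKM multiplied by exon length was a whole multiple of 1 step per library for 91.9% to 92.2% of values up to 500 reads (within 0.02 of a read), which gave the read totals. For 8 of the 10 members the M21 exon union gave whole reads; for Carmil3 and Cd2ap the length that does so was searched. Copies were sought with BLAST 2.17.0 (at least 95% identity over 200 bases).

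The test was limma 3.58.1 in R 4.3.3 on log2(FPKM + 1), eBayes with trend and robust, for the 11171 genes that reached 1 FPKM in 3 libraries or more, with Benjamini-Hochberg adjustment over all of them and a threshold of 0.05. The 1 FPKM added before the log2 understates changes of low genes. Ratios were tested by exact permutation over libraries. The fit was also run on simulated data with changes of 1.5-fold or more in a small part of the genes. The changes of the members are smaller, so that run does not bear on calls of their size. Genes named were the members, the called list genes with the largest changes, the most abundant ones not called, and those most like Carmil1 and Capzb. Members, lists and tests were chosen with earlier results of these data known. Python 3.11.15, numpy 2.4.6, pandas 2.3.3, scipy 1.17.1 and matplotlib 3.10.9 were also used. Alternatives were other pseudocounts, filters and scalings, other settings of the test, limma-voom on recovered reads, centring on the 20 nearest tested genes on each side, and leaving out each library.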

Additional observations from a re-analysis of the deposited data

How the results depend on the processing

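Under a test for changes beyond 1.5-fold, the calls over all genes numbered 118 higher and 193 lower, and 0 members and 0 pathway list genes were called in either direction. Centring on neighbours left 0 members higher and 2 lower, and 6 pathway list genes lower in place of 16. With the replicate number as a block (replicate block) 3 members were higher and 2 lower. Same-numbered libraries correlated at -0.06, 0.15 and 0.10 in their deviations, and differently numbered ones at -0.20 to 0.08. The 0.15 and 0.10 were thus the highest of all pairs. The main test did not pair the libraries, and whether the numbers mark pairs was not tested. Limma-voom on recovered reads called 2 members lower. Without the filter 0 members were lower and 3 pathway list genes higher in place of 5. With 1 library left out, 1182 to 2041 genes were higher and 1358 to 2218 lower, 0 to 2 members higher and 0 to 1 lower, and 3 to 7 pathway list genes higher and 11 to 16 lower. No sign of a called member or list gene turned under these alternatives, and the ratios moved by less than the spread between libraries. Depth limits Carmil2 and Carmil3, with at most 10 reads in a library. The causes of these shifts were not tested.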
